A study of Mus musculus with 8 samples.

Results

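Transcripts of 10 genes that mark myeloid cells were followed through 8 RNA sequencing libraries of flow-sorted mouse CD4 T cells. They are Csf1r, Cd14, Fpr1, Itgam, Lyz2, Cd68, S100a8, S100a9, Tyrobp and Fcer1g, chosen by symbol, and all were present among the 14042 genes of the tables. Earlier results of these libraries were known when they were chosen, among them the low values of Cd14 and Fpr1 in TFH WT against naive WT. Values in that contrast are therefore given here without a test.

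The 8 libraries fall into 4 groups of 2. TFH KO and TFH WT are donor CD4 cells sorted as CXCR5+ and PD1hi, markers of T follicular helper (TFH) cells, from spleens of (bxd)F1 recipients at day 7 after CD8-depleted donor spleen cells were injected. KO donors were C5aR1-/-, which lack one of the receptors of complement C5a, and WT donors were wild type. Naive KO and naive WT are CD62Lhi CD44lo CD4 cells of C5aR1-/- and wild type genotype, sorted alongside as controls with no transfer named in their labels. Ages, sexes and the strain of the donors are not given in the labels, nor is it stated whether each library had its own animals, so p-values measure only the spread between these libraries, which may be technical. The labels name no removal of the recipients' own blood cells.

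Macrophages, monocytes and neutrophils carry a set of transcripts that resting CD4 T cells are not known for. Csf1r encodes the growth factor receptor that keeps macrophages alive, while S100a8 and S100a9 encode calprotectin, a protein stored in bulk by neutrophils. Tyrobp and Fcer1g encode small membrane adaptors that pair with receptors lacking a signalling tail, on myeloid cells and also on NK cells. In the spleen, red pulp macrophages take up old red cells.

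Values are deposited log2 expression values, quantile normalized before deposit, so depth is unknown and a level can be compared between libraries but not between genes. The median gene stood at 10.14 in each library and the lowest percentile ended at about 5.92. T cell transcripts were high in the 8 libraries, with Cd3e at 13.75 to 13.99 and Cd4 at 15.48 to 15.69, while Cd8a lay between 5.70 and 8.69. Of the sort markers, Pdcd1 (PD1) lay at 11.88 to 12.85 in TFH and 10.80 to 11.97 in naive libraries, and Cxcr5 at 10.85 to 11.56 in TFH and 11.56 to 12.45 in naive libraries, and Cd44 at 11.97 to 12.11 in TFH and 12.53 to 13.04 in naive libraries, so at the RNA level Pdcd1 ran with the labels while Cxcr5 and Cd44 ran against them. The groups are called by their labels. Replicate numbers were given by accession order and serve as names alone. Over all genes, TFH KO replicate 1 was more like TFH WT replicate 1 (r = 0.992), and TFH KO replicate 2 more like TFH WT replicate 2 (r = 0.993), than the TFH KO libraries were like each other (r = 0.983).

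Of the 10 genes, 7 had an entry in the RefSeq promoter table (GRCm38.p6, the build behind mm10). The 200 bases that end 50 bases before the start site are shown for Lyz2, S100a8 and S100a9, the 3 genes whose window holds the letters described next, and for Itgam, which has none and had the narrowest range of the 10. Start sites are those of RefSeq, and the GENCODE vM21 gene starts differ for some genes: that of S100a8, at position 90668978, lies inside its window. Capitals mark GGAAGT or its reverse complement ACTTCC, the core that PU.1, the master transcription factor of myeloid cells, shares with other ETS factors.
Lyz2, chr10:117282323-117282522, minus strand: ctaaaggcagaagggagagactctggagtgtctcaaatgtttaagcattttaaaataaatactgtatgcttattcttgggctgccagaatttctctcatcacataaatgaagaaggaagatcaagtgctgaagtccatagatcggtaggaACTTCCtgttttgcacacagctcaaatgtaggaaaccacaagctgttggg
S100a8, chr3:90668821-90669020, plus strand: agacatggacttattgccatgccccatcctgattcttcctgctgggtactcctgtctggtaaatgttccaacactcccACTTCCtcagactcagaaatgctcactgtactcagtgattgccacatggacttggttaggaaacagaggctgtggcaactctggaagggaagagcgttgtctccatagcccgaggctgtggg
S100a9, chr3:90695772-90695971, minus strand: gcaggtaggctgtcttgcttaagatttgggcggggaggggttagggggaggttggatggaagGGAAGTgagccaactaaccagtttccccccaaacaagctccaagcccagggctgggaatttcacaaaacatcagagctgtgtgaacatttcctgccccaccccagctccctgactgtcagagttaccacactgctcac
Itgam, chr7:128062390-128062589, plus strand: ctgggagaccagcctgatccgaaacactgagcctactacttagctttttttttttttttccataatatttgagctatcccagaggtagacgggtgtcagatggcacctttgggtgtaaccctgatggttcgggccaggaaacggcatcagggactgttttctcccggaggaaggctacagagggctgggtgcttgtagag
These letters were chosen after the sequences had been read. They occurred in 3 of the 7 windows, namely those of Lyz2, S100a8 and S100a9, and not in those of Itgam, Cd68, Fpr1 and Fcer1g, of which Fpr1 and Fcer1g had wider ranges over the libraries (6.10 and 5.03) than Lyz2 (4.93) and S100a8. The same letters occurred in 14.6% of all 32851 windows of the table, searched on both strands with no chromosome left out.

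Group means of 9 of the 10 myeloid transcripts were lower in both TFH groups than in both naive groups, and 1 library, naive WT replicate 1, held the highest value of each of the 10 genes. Over all genes that library held the highest value for 10.1%. TFH WT replicate 1 held the lowest value of 8 of the 10, against 11.9% of all genes. Itgam stood apart from the other 9, with a range of 0.995 over the libraries, while S100a9 covered 7.30, more than nearly all genes (99.96% of genes had a range up to its own).

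**Figure D1:**
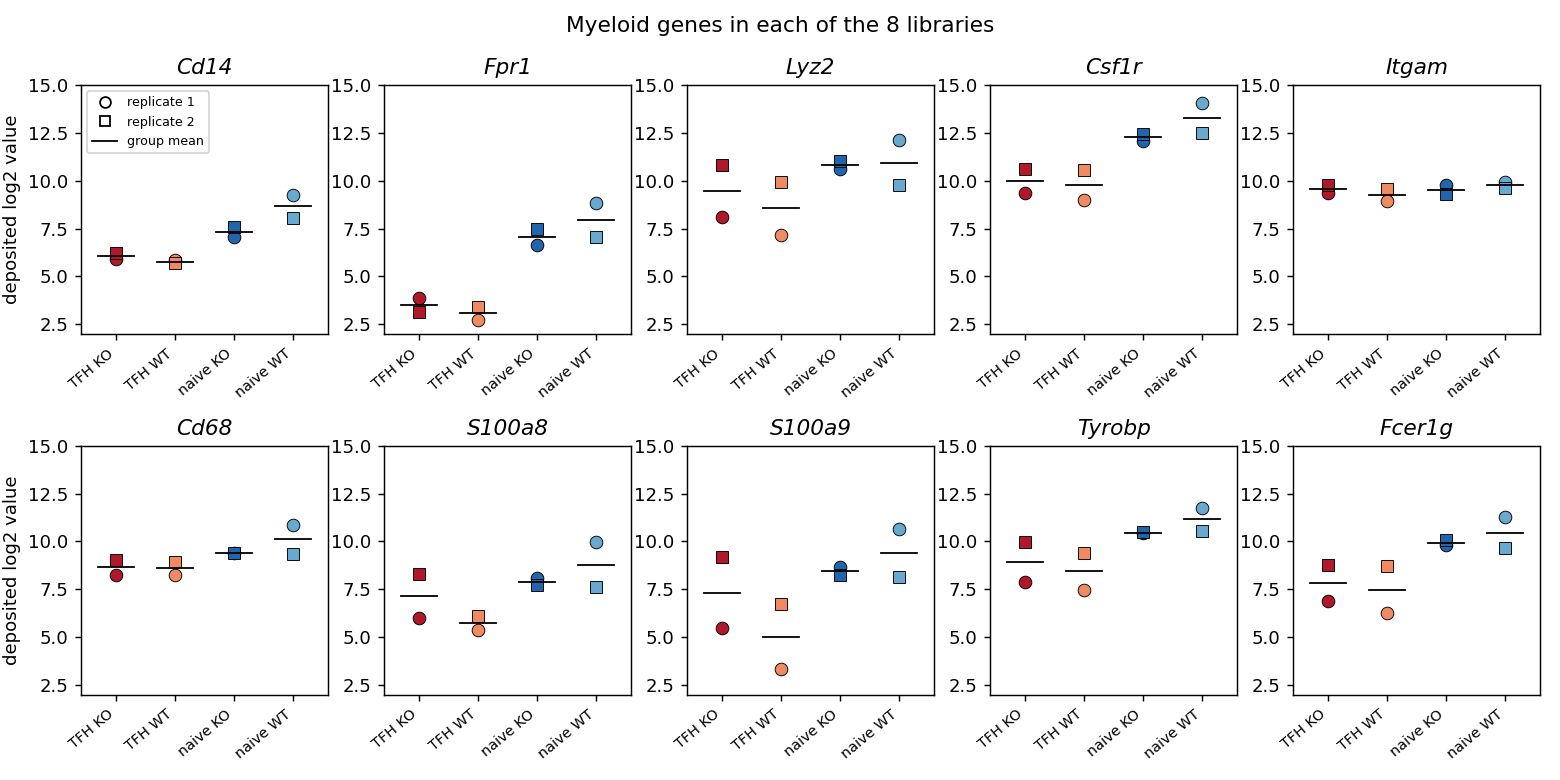
Deposited log2 value (vertical axis) of each myeloid gene in TFH KO, TFH WT, naive KO and naive WT libraries; circles and squares are the 2 libraries of a group and the bar is their mean. Naive WT replicate 1 is the highest point in each panel, reaching 14.07 for Csf1r, and Itgam stays between 8.96 and 9.96.

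Of the macrophage receptors and surface proteins, Csf1r had 9.36 and 10.61 in TFH KO and 8.98 and 10.54 in TFH WT, against 12.07 and 12.46 in naive KO and 14.07 and 12.48 in naive WT. Each naive library lay above each TFH library. Cd14, the co-receptor that hands bacterial lipopolysaccharide to TLR4, had 5.94 and 6.23 in TFH KO and 5.85 and 5.70 in TFH WT, against 7.09 and 7.59 in naive KO and 9.26 and 8.05 in naive WT. The 4 groups of Cd14 did not overlap, and the TFH libraries placed it between percentiles 0.698 and 1.97 of all genes, at the bottom of the measured range.

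Fpr1, which encodes the receptor for formylated bacterial peptides on neutrophils and monocytes, had 3.87 and 3.12 in TFH KO and 2.73 and 3.42 in TFH WT, against 6.67 and 7.49 in naive KO and 8.83 and 7.09 in naive WT. The TFH values sit at or under percentile 0.0855 of all genes, and each naive library lay above each TFH library. Itgam, the CD11b integrin chain of myeloid cells that NK cells also carry, had 9.34 and 9.78 in TFH KO and 8.96 and 9.55 in TFH WT, against 9.75 and 9.29 in naive KO and 9.96 and 9.63 in naive WT. In the order of the 4 group means of Itgam, each group overlapped its neighbour.

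The lysosomal and granule genes varied within groups. Lyz2, lysozyme of macrophages and neutrophils, had 8.08 and 10.81 in TFH KO and 7.18 and 9.95 in TFH WT, against 10.61 and 11.05 in naive KO and 12.11 and 9.77 in naive WT. Replicate 2 of each TFH group thus reached the naive range, and replicate 1 did not. Reads of 51 bp may not separate Lyz2 from its near-identical neighbour Lyz1, whose values (5.71 to 9.80) had a Pearson's r of 0.991 with Lyz2 over the 8 libraries. Cd68, a lysosomal glycoprotein of macrophages, had 8.25 and 9.05 in TFH KO and 8.27 and 8.93 in TFH WT, against 9.42 and 9.39 in naive KO and 10.88 and 9.33 in naive WT. All naive values of Cd68 lay above all TFH values, with 9.33 as the lowest naive and 9.05 as the highest TFH value.

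Of the calprotectin genes, S100a9 had the widest range of the 10, and that of S100a8 was 4.58. S100a8 had 6.01 and 8.31 in TFH KO and 5.40 and 6.11 in TFH WT, against 8.09 and 7.72 in naive KO and 9.98 and 7.60 in naive WT. S100a9 had 5.46 and 9.18 in TFH KO and 3.33 and 6.73 in TFH WT, against 8.68 and 8.26 in naive KO and 10.63 and 8.12 in naive WT. TFH KO replicate 2 exceeded both naive KO libraries for each gene of the pair. In that library Csf1r lay 1.43 above S100a9, the smallest gap of the 8 (3.39 to 5.65 in the other 7), so S100a9 was highest there relative to Csf1r.

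The adaptors moved as a pair. Tyrobp, also called DAP12, had 7.88 and 9.96 in TFH KO and 7.44 and 9.42 in TFH WT, against 10.44 and 10.47 in naive KO and 11.77 and 10.55 in naive WT. Fcer1g, the common gamma chain of Fc receptors, had 6.87 and 8.77 in TFH KO and 6.25 and 8.73 in TFH WT, against 9.80 and 10.07 in naive KO and 11.28 and 9.64 in naive WT. For both genes all naive libraries were above all TFH libraries, and replicate 2 was above replicate 1 within each TFH group. The difference Tyrobp minus Fcer1g stayed between 0.40 and 1.19 in the 8 libraries.

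In all, 6 of the 10 genes (Cd14, Fpr1, Csf1r, Cd68, Tyrobp and Fcer1g) had all 4 naive libraries above all 4 TFH libraries, as did 20.3% of all genes. In bulk libraries, fewer myeloid cells and less RNA per myeloid cell cannot be told apart, nor can either be told from low expression in the T cells themselves.

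TFH KO was compared with naive KO to ask how the sorted donor cells differ from naive cells where both lack C5aR1. None of the KO libraries enters the WT contrast named above, but the standard errors pool the spread of all 8 libraries, WT included. The genes were also chosen with earlier results of these data known, so the p-values are not independent of that choice. Fpr1 fell by 3.58 ± 0.59 on the log2 scale (limma, Benjamini-Hochberg adjusted p = 0.00212; n = 2 libraries each, as in the differences below) and Cd14 fell by 1.25 ± 0.36 (adjusted p = 0.0358). The remaining 8 genes were not called, with Csf1r at -2.28 ± 0.89 (adjusted p = 0.173), Fcer1g at -2.11 ± 1.22, Tyrobp at -1.54 ± 1.08 and S100a9 at -1.15 ± 1.95. Of all genes 10.4% were called lower here and 9.12% higher, and 2 of 10 is read against that share. The median over the 10 was -1.32, against -0.011 over all genes, and 6 of the 10 had both TFH KO libraries below both naive KO libraries, against 30.6% of all genes. Itgam, at 0.034 ± 0.25, was the 1 positive difference, and its sign turned without TFH KO replicate 2 (-0.19) or naive KO replicate 2 (-0.19). The Cd14 call ended without any 1 of the 4 libraries (adjusted p = 0.0551 to 0.190), and that of Fpr1 remained (0.00710 to 0.0279) until replicate 2 of both TFH groups was left out (adjusted p = 0.0658).

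TFH WT against naive WT is given as a description. The further gene lists were likewise chosen with earlier results of these data known. Their calls and adjusted p-values in this contrast, given below, are a description too. Differences were -4.88 ± 0.59 for Fpr1, -4.34 ± 1.95 for S100a9, -3.52 ± 0.89 for Csf1r, -3.03 ± 1.16 for S100a8 and -2.88 ± 0.36 for Cd14. Lyz2, at -2.37 ± 1.58, was the gene whose groups overlapped, and in the other 9 both TFH WT libraries lay below both naive WT libraries, as in 32% of all genes. The smallest difference was that of Itgam, at -0.54 ± 0.25, which turned to 0.028 with centring on T cell identity genes. With naive WT replicate 1 left out, the difference was -4.01 for Fpr1, -2.28 for Cd14 and -0.73 for Cd68, against -1.51 for Cd68 with both libraries.

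**Figure D2:**
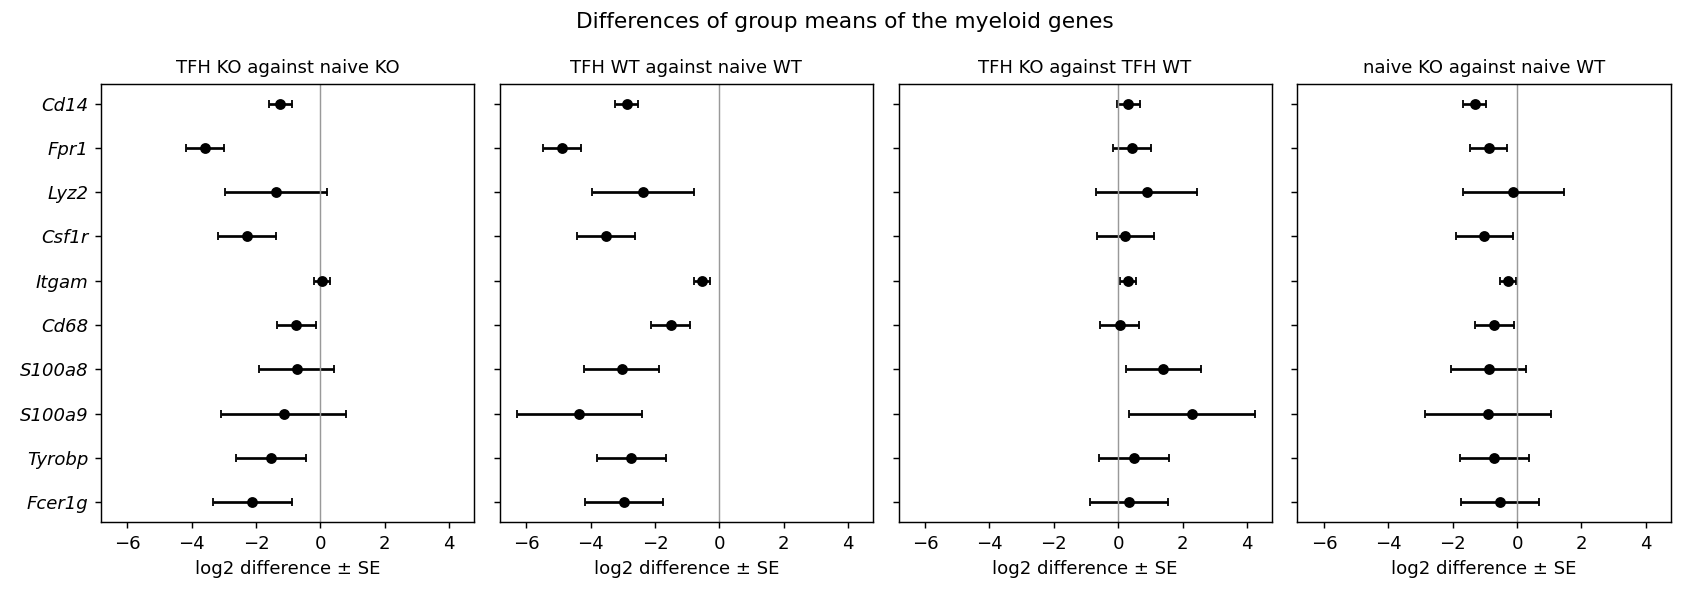
Log2 difference of group means (horizontal axis) with its moderated standard error for the 10 myeloid genes in 4 comparisons, the group named first minus the second, n = 2 libraries per group. Both TFH against naive panels lie left of 0 but for Itgam in KO at 0.034, and the 10 points of TFH KO against TFH WT lie right of 0, from 0.053 for Cd68 to 2.29 for S100a9.

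The comparison of TFH KO with TFH WT addresses the effect of donor genotype on the sorted cells. Over all 14042 genes limma called none (0%), with 506 at an unadjusted p under 0.05. The TFH WT libraries are in the contrast known when the 10 genes were chosen, so the values of the 10 are a description. All 10 differences were positive with a median of 0.38. Csf1r differed by 0.22 ± 0.89 (95% interval -2.21 to 2.66), Lyz2 by 0.88 ± 1.58 (-3.43 to 5.19) and S100a9 by 2.29 ± 1.95 (-3.03 to 7.61), so sizeable differences either way remain within the intervals. For 5 of the 10 (Lyz2, Csf1r, Cd68, Tyrobp and Fcer1g) the sign turned without TFH KO replicate 2 and likewise without TFH WT replicate 1. Cd14 at 0.31 ± 0.36 (-0.49 to 1.11) was the gene whose KO libraries both lay above both WT libraries, against 16.5% of all genes.

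Among naive libraries, KO was lower than WT in the mean of each of the 10 genes, with a median of -0.79, but this rested on naive WT replicate 1. The naive WT libraries are also in the contrast known when the genes were chosen, so these values are a description. Cd14 was at -1.32 ± 0.36, Csf1r at -1.01 ± 0.89 and S100a9 at -0.91 ± 1.95, and Cd14, Csf1r and Tyrobp were the 3 genes whose groups did not overlap, against 11.2% of all genes (0.0712% of all genes were called in either direction). Without naive WT replicate 1 the sign turned for 5 genes, to 1.06 for Lyz2, 0.34 for S100a9, 0.30 for S100a8, 0.30 for Fcer1g and 0.076 for Cd68, and Cd14 was at -0.71.

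The 2 libraries of a group differed more in the myeloid genes than in most genes. In naive WT, replicate 2 minus replicate 1 was negative for each of the 10, at -2.51 for S100a9, -2.38 for S100a8, -2.34 for Lyz2 and -1.59 for Csf1r, and 9 of the 10 differed by 1 or more, against 2.38% of all genes. TFH KO replicate 2 exceeded replicate 1 by 3.72 for S100a9 and 2.73 for Lyz2, and 6 of the 10 differed by 1 or more, against 2.44% of all genes. In TFH WT the same held for S100a9 (3.40), Lyz2 (2.78) and Fcer1g (2.47), with 5 of 10 at 1 or more against 1.22%. In naive KO no gene of the 10 differed by 1 or more, the widest gap being 0.82 for Fpr1. Cd14 and Fpr1, unlike the other 8, were not higher in replicate 2 of both TFH groups, as 26.2% of all genes were (Cd14 by 0.30 in KO and -0.15 in WT, Fpr1 by -0.75 in KO and 0.68 in WT).

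**Figure D3:**
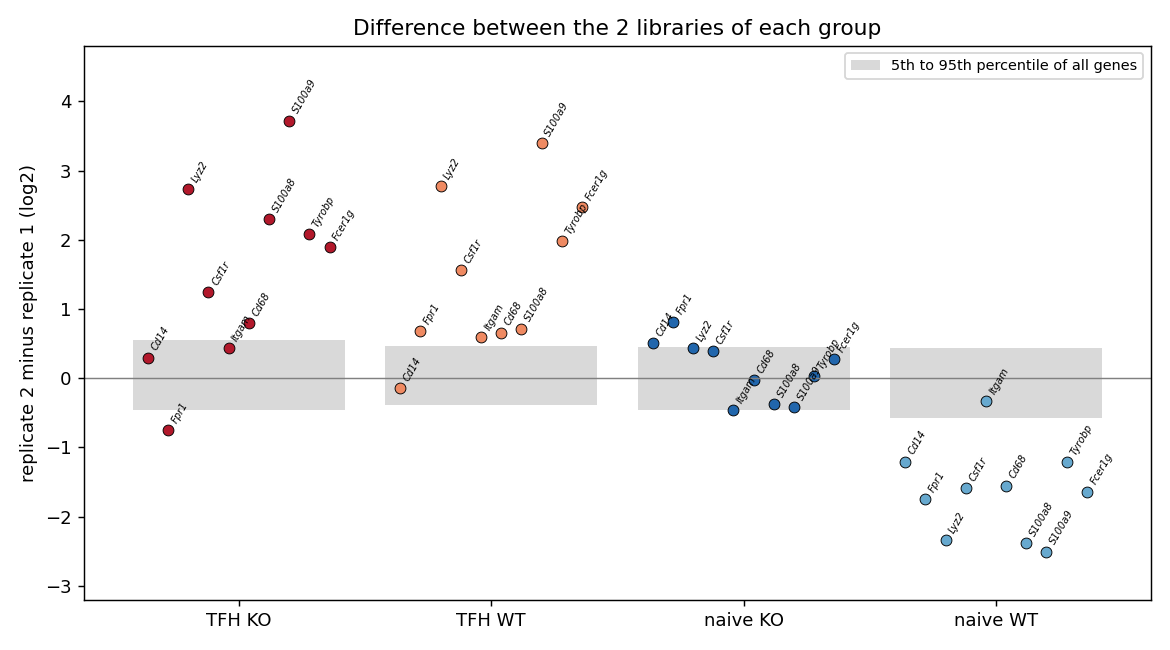
Difference between the 2 libraries of each group (replicate 2 minus replicate 1, log2, vertical axis) for the 10 myeloid genes; the grey band runs from the 5th to the 95th percentile of all genes. Naive WT points other than Itgam lie below the band, most TFH points lie above it, and naive KO points lie within or near it.

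Markers of other cell types also varied between the libraries. B cell genes (16 measured) had a median of -1.63 and 2.13 relative to each gene's mean in TFH KO replicates 1 and 2, and of -1.46 and 0.58 in TFH WT. In naive KO they had 0.69 and -0.05, and in naive WT 0.18 and -0.46. The summed level of the B cell list was 11.99 to 15.48 in TFH KO, 12.20 to 14.04 in TFH WT, 13.36 to 14.06 in naive KO and 12.96 to 13.65 in naive WT, on a log2 scale. Pearson's r was taken across the 8 libraries, TFH and naive together. No group means were removed, so the difference between TFH and naive libraries enters each r. The median r with the B cell genes was 0.71 for Lyz2, 0.70 for Itgam and 0.69 for S100a9. It was 0.57 for Tyrobp, 0.56 for S100a8, 0.52 for Fcer1g, 0.41 for Cd68, 0.34 for Csf1r, 0.094 for Cd14 and 0.039 for Fpr1. For each gene but Itgam the median r was higher with NK cell genes (0.73 to 0.85) and with further monocyte and macrophage genes (0.84 to 0.98). For Itgam these were 0.64 and 0.68. When the fit also held each library's B cell level, an addition made once the data had been seen, Tyrobp in TFH KO against naive KO was called lower (-1.48, adjusted p = 0.0499), while Fpr1 and Cd14 kept their calls. The part of B cells, or of cells that come along with them, in the myeloid values was not tested.

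NK cell genes (12 measured) had medians of -0.69 and -0.15 in TFH KO and -1.35 and -0.53 in TFH WT, against 0.52 and 0.58 in naive KO and 0.76 and 0.80 in naive WT. Their summed level was 12.98 to 13.45 in TFH KO, 12.63 to 13.02 in TFH WT, 13.94 to 14.47 in naive KO and 14.14 to 14.31 in naive WT. In TFH KO against naive KO 5 of the 12 fell and none rose, against 10.4% and 9.12% of all genes. Those that fell were Klrk1, Klrc1, Klrd1, Klrb1c (the NK1.1 receptor) at -1.66 ± 0.12 and Prf1 (perforin) at -0.89 ± 0.13. They were named after their values were seen. The genes of the list with the highest mean level were not called there. These were Ccl5 at -1.13 ± 0.45 (limma adjusted p = 0.169), Nkg7 at -0.75 ± 0.39 (0.264) and Gzma at -0.28 ± 0.75 (0.844). Eomes went the other way, at 0.47 ± 0.21, without a call. Between the naive WT libraries, the median of replicate 2 minus replicate 1 was -0.12 over the NK cell genes, against -1.62 over the 10 myeloid genes. NK cells carry Tyrobp, Fcer1g and Itgam, and their share in those values was not tested. T cell identity genes (14 measured) had medians between -0.18 and 0.13 in the libraries, and 4 of them (Cd3d, Cd5, Thy1 and Cd2) were called lower in TFH KO against naive KO on the deposited scale, between -0.87 and -0.36, a direction that centring on this list moves by its own construction.

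Among 30 further monocyte and macrophage genes, 28 had negative differences in TFH KO against naive KO, with a median of -1.88, and 2 fell: Ccr2, a chemokine receptor that T cells also use, at -1.25 ± 0.22 (adjusted p = 0.00439), and Ms4a7 at -2.24 ± 0.51 (adjusted p = 0.0141). None rose. In TFH WT against naive WT the median was -2.55, and 7 of the 30 fell and none rose (13.7% of all genes were called lower and 12.6% higher), among them Mertk, a receptor for clearing dead cells, at -3.23 ± 0.70 and Spic, the transcription factor of red pulp macrophages, at -3.17 ± 0.73, both named after their values were seen. Hmox1, the haem-degrading enzyme, had 10.04 and 11.03 in TFH KO and 9.58 and 11.18 in TFH WT, against 12.75 and 12.75 in naive KO and 14.09 and 12.32 in naive WT, and was not called in either. Axl, a receptor related to Mertk, likewise had its highest value in naive WT replicate 1 (13.41, against 10.13 to 11.93 in the other 7). Cybb, the oxidase subunit gp91phox, went the other way, at 10.98 to 11.89 in TFH and 10.28 to 11.66 in naive libraries, without a call. Of the 30 genes 25 had all naive libraries above all TFH libraries, against 20.3% of all genes. The highest value was in naive WT replicate 1 for 26 of them, against 10.1% of all genes. None of the 30 was called between KO and WT in TFH or in naive libraries. Calls of this and the other further lists in TFH WT against naive WT are a description, since the lists were chosen with earlier results known.

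Of 16 further neutrophil genes, 1 rose and none fell in TFH KO against naive KO, with a median of -0.13, and 2 rose and 2 fell in TFH WT against naive WT, with a median of -1.27. These counts are read against the shares of all genes. In KO 9.12% were called higher and 10.4% lower, and in WT 12.6% higher and 13.7% lower. Padi4, which modifies histones in neutrophil extracellular traps, had 11.23 and 11.92 in TFH KO and 12.14 and 11.81 in TFH WT, against 8.35 and 8.50 in naive KO and 8.69 and 7.66 in naive WT. It rose by 3.15 ± 0.40 in KO (adjusted p = 0.00469) and 3.80 ± 0.40 in WT (adjusted p = 0.00178), where S100a8 and S100a9 had negative differences. Il1r2, a decoy receptor for interleukin 1, rose by 2.60 ± 0.54 in WT (adjusted p = 0.0240) and was at 1.64 ± 0.54 in KO without a call. Mmp9, a gelatinase, fell by 2.75 ± 0.42 in WT (adjusted p = 0.00637) and was at -1.60 ± 0.42 in KO without a call, and the other gene that fell in WT was Fpr2, a relative of Fpr1, at -4.75 ± 0.71, with both TFH WT libraries listed at the lowest value of their tables (1.47 and 1.16), so that the size of the difference depends on that floor. Of the 16 genes 13 had their highest value in naive WT replicate 1, against 10.1% of all genes. Among the 13 were the granule genes Ngp (9.89, against 6.08 to 8.67 in the other 7) and Camp (8.61, against 4.56 to 7.19), chosen after their values were seen. Only 2 of the 16 had all naive libraries above all TFH libraries, against 20.3% of all genes.

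**Figure D4:**
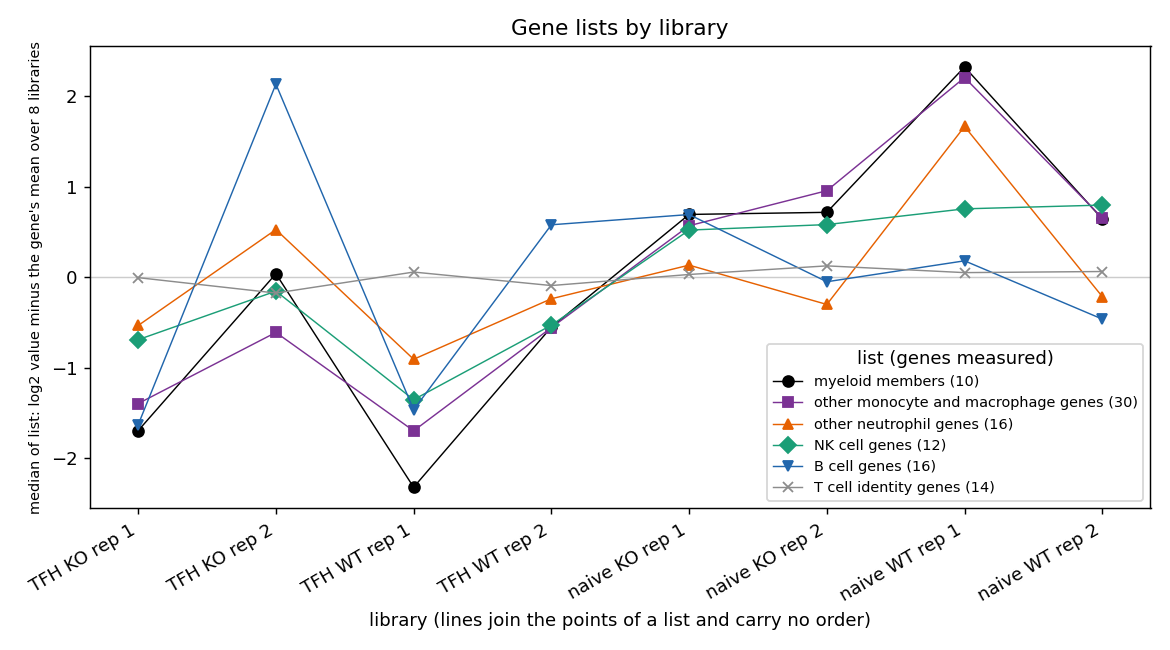
Median over each gene list of the log2 value minus the gene's mean over the 8 libraries (vertical axis), by library. The 10 myeloid genes and the further macrophage genes peak together in naive WT replicate 1 (2.32 and 2.21), the B cell genes peak in TFH KO replicate 2 (2.13), and the T cell identity genes stay near 0.

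Receptors that signal through Tyrobp or Fcer1g (10 measured, 6 of them also in the lists of macrophage, NK, dendritic or mast cell genes) had a median of -1.23 in TFH KO against naive KO, with 1 of 10 called, and of -1.98 in WT, with 3 called lower (Klrk1, Fcgr3 and Ms4a2). Of all genes, 10.4% were called lower in KO and 13.7% in WT, so 1 of 10 in KO is near the share of all genes. Klrk1, the NKG2D receptor of NK and CD8 T cells, fell by 1.47 ± 0.31 in KO (adjusted p = 0.0164) and by 2.32 ± 0.31 in WT. Clec4n, a myeloid lectin (Dectin-2), had 6.93 and 7.91 in TFH KO and 6.35 and 7.82 in TFH WT, against 9.37 and 9.19 in naive KO and 11.40 and 9.08 in naive WT. Ncr1, the NKp46 receptor of NK cells, was at -0.59 ± 0.65 in KO and -1.62 ± 0.65 in WT without a call. Dendritic cell genes (7 measured) had medians of 0.0061 in KO and -0.42 in WT with none called, as in Itgax (CD11c) at -0.0029 ± 0.27 in KO and -0.63 ± 0.27 in WT.

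By likeness over the 8 libraries, a description with no test, the genes closest to Csf1r were Clec4a3 (r = 0.996) and Mrc1 (r = 0.996), both of macrophages. Tyrobp and Fcer1g were each other's closest among the 10 (r = 0.991), and outside them the closest were Plbd1 (r = 0.995) and Mpeg1 (r = 0.992) for Tyrobp and Sirpa (r = 0.993) and Mpeg1 (r = 0.992) for Fcer1g. Lyz2 was closest to Lyz1 and Pld4 (r = 0.991 each) and Cd68 to Lgmn and Plxnb2 (r = 0.992 each). S100a8 was closest to Fgr (r = 0.965) and Tifab (r = 0.962) and S100a9 to Pirb (r = 0.970). Cd14 was closest to Lpcat2 (r = 0.986) and Rab3il1 (r = 0.983) and Fpr1 to Cd86 and Fgl2 (r = 0.985 each). Itgam was closest to Cd244 (r = 0.941) and Ncr1 (r = 0.889), both NK cell receptors, and its r with Fpr1, the least alike of the 10, was 0.49. Such r values rest on few libraries and on 705 candidate genes with a range of 2 or more. They also include the difference between TFH and naive libraries.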

How the data were processed

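The 8 libraries of total RNA (standard mRNA preparation, 51 bp single-end reads, per the labels' protocols) were analysed as 4 groups of 2. Per the submitters' processing notes BWA and the mouse build mm10 were used. For the counting tool, annotation, filter and normalization, nothing is stated in those notes or in the labels. The authors deposited 1 table of log2 values per library for 14042 gene symbols. Above the lowest percentile the sorted values differed by at most 0.03 from the median library, so they had been quantile normalized before deposit. Depth is unknown and no counting interval can be given.

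The log2 values were fitted as they stand, without a pseudocount, with limma 3.58.1 (R 4.3.3): a mean per group over all 8 libraries (4 residual degrees of freedom), mean-variance trend, robust option, and Benjamini-Hochberg adjustment over all genes, called under 0.05. Differences are group means ± moderated standard error. The script was tested on simulated data. An exact permutation test of 2 against 2 cannot go below p = 0.333. The 10 genes and all lists were chosen with earlier results of these data known. Beside the 10 genes, the rule for named genes took the 3 genes of each list with the highest mean level, a list's only called gene, the 2 genes with the highest Pearson's r with each of the 10 and the sort markers. The text does not print every gene the rule took (1 is not reported here), and other called genes it names (such as Fpr2, Fcgr3, Spic, Mertk, Cd8b1 and the NK and T cell genes) were chosen after their values were seen. Promoters are RefSeq GRCm38.p6. Alternatives were no trend, no robust option, compared groups only, a filter at the 25th percentile of mean level, centring on T cell identity genes, each library left out, and, chosen after seeing the data, a B cell covariate and leaving out replicate 2 of both TFH groups. Red cell and platelet genes, and the lists of basophil and MHC class II genes, are given in the closing section.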

Additional observations from a re-analysis of the deposited data

Results flagged for a closer look

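Cd14 was singled out because its genotype difference ran in opposite directions without overlap: both TFH KO libraries (5.94 and 6.23) lay above both TFH WT libraries (5.85 and 5.70), while both naive KO libraries (7.09 and 7.59) lay below both naive WT libraries (9.26 and 8.05). The difference between these genotype differences was 1.63 ± 0.51 on the log2 scale and was not called (limma, adjusted p = 0.997). It is given as a description, since the WT libraries are in the contrast known when the gene was chosen. The TFH values of Cd14 lie at or under percentile 1.97 of all genes. Of all genes, 16.5% had both TFH KO libraries above both TFH WT libraries, and 11.2% had both naive KO below both naive WT libraries. The share of genes with both patterns in opposite directions was not counted. Groups of 2 were too small to look for single outlying libraries.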

How the results depend on the processing

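No paired analysis was possible because the labels carry no replicate numbers, and those used here follow the order of deposit. Of 550 values of the 10 genes under alternatives, 496 kept their direction and side of the threshold or moved by less than the spread between replicates, and the 32 whose sign turned were all uncalled or untested. For TFH KO against TFH WT, leaving out 1 library gave -0.51 to 2.27 for Lyz2, -0.56 to 1.003 for Csf1r, -0.35 to 0.45 for Cd68, -0.55 to 1.53 for Tyrobp and -0.90 to 1.57 for Fcer1g. The B cell covariate gave -0.086 for Csf1r, -0.14 for Cd68 and -0.14 for Fcer1g, and leaving out replicate 2 of both TFH groups gave -0.016 for Cd68. For naive KO against naive WT, leaving out 1 library gave -1.28 to 1.06 for Lyz2, -1.48 to 0.076 for Cd68, -2.08 to 0.30 for S100a8, -2.16 to 0.34 for S100a9 and -1.34 to 0.30 for Fcer1g. For TFH KO against naive KO it gave -1.89 to 0.41 for S100a8, -3.01 to 0.72 for S100a9 and -0.19 to 0.26 for Itgam (-0.19 also without replicate 2 of both TFH groups). For the interaction (the TFH minus naive difference in KO minus that in WT) it gave -0.40 to 2.38 for Lyz2, -0.38 to 2.09 for Fcer1g and -0.023 to 1.53 for Cd68. Csf1r in TFH KO against naive KO was called without the robust option (adjusted p = 0.0354), and Cd14 was not called without the trend (adjusted p = 0.0708) or with T cell centring (adjusted p = 0.0661). Cd14, Fpr1, S100a8 and S100a9 were removed by the filter.

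Centring on T cell identity genes shifted the median gene by 0.42 in TFH KO against naive KO and by 0.57 in TFH WT against naive WT, gave 5193 and 8519 called genes in place of 2744 and 3694, and made 94.5% and 95.4% of calls higher, against 46.6% and 48.0%. The centring used the median level of the 14 T cell identity genes in each library. Gene by gene, their median difference was smaller, at -0.17 in TFH KO against naive KO and -0.05 in TFH WT against naive WT. Under the centring Itgam in TFH WT against naive WT was at 0.028, below the shift of the median gene. Counts of called genes with 1 library left out were 1399 to 2219 (TFH KO against naive KO), 1991 to 2501 (TFH WT against naive WT), 7 to 17 in place of 10 (naive KO against naive WT) and 1 to 7 in place of 2 (interaction), and 1225 and 2104 for the first 2 comparisons without replicate 2 of both TFH groups. The interaction had 0 without the trend, and TFH KO against TFH WT had 1 with the compared groups only. The cause of these changes was not tested. With 2 libraries a group and unknown depth, low values such as those of Fpr1 carry little precision.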

Other observations

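Basophil, mast cell and eosinophil genes (11 measured) had medians of -0.17 in TFH KO against naive KO and -0.40 in TFH WT against naive WT. Within this list Ccr3, the eotaxin receptor of eosinophils, had the myeloid pattern: 5.80 and 7.16 in TFH KO and 6.16 and 7.28 in TFH WT, against 9.37 and 9.71 in naive KO and 11.60 and 9.73 in naive WT. It fell by 3.95 ± 0.87 in WT (limma adjusted p = 0.0349) and was at -3.06 ± 0.87 in KO (adjusted p = 0.0827). Epx and Prg2, which encode eosinophil granule proteins and were chosen after their values were seen, ranged from 6.11 to 7.16 and from 5.14 to 7.67 over the 8 libraries. Cd200r3, a receptor of basophils and mast cells, fell by 0.88 ± 0.27 in KO (adjusted p = 0.0409) and by 1.48 ± 0.27 in WT (adjusted p = 0.00229), and Kit was not called, at -0.52 ± 0.45 in KO and -0.55 ± 0.45 in WT.

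MHC class II presentation genes (7 measured), which macrophages and B cells share, were not called in any of the 4 comparisons of groups. Cd74, the invariant chain, had 11.40 and 15.48 in TFH KO and 11.58 and 13.92 in TFH WT, against 13.89 and 14.21 in naive KO and 14.41 and 13.20 in naive WT, so its highest value was in TFH KO replicate 2 and not in naive WT replicate 1. Red cell and platelet genes (5 measured) had medians of -0.21 in KO and -0.42 in WT with none called, and Itga2b, the platelet integrin chain, stayed between 9.33 and 9.50 in the 8 libraries. Of the CD8 genes, Cd8b1 fell by 0.54 ± 0.17 in TFH WT against naive WT (adjusted p = 0.0400) and was at -0.29 ± 0.17 in KO.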
